A study of Mus musculus with 8 samples.

Results

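The genes described here encode the proteins of the mitochondrial ribosome, and the measurement is where phosphorylated CREB1 was found at their ends in mouse muscle. Members were all protein-coding genes of the GRCm38 annotation whose symbol is Mrpl or Mrps followed only by digits, which gave 75 of 21887 protein-coding genes, on 17 chromosomes. A member had a gene-end peak in a library when the summit of a peak in that library's list was no more than 1000 bp away from one of the ends of the gene's span. Of the 75 symbols, 50 belong to the large subunit (the Mrpl genes and Mrps30) and 24 to the small subunit. The remaining one, Mrps36, carries the family name although its protein is now known as part of the oxoglutarate dehydrogenase complex.

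The mitochondrial ribosome translates the few messages made from mitochondrial DNA, which encode core subunits of the respiratory chain and ATP synthase. Its RNAs come from mitochondrial DNA, whereas all its proteins are encoded in the nucleus, made in the cytosol and imported. CREB1 is a transcription factor that binds the cAMP response element (CRE), and its phosphorylation by cAMP-dependent and other kinases recruits coactivators. NRF1 and the ETS factor GABP are textbook regulators of nuclear genes for mitochondrial proteins.

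The libraries came from muscle of male Balb/c mice. In the C26 group, mice had received C26 colon adenocarcinoma cells under the skin at 2 months of age, a model of cancer wasting, and the CTRL group served as controls, whose age is not given separately in the labels. There were 2 phospho-CREB1 libraries and 2 inputs (chromatin without immunoprecipitation) in each group. The tissue is named gastrocnemius in one label and quadriceps in another, the antibody is given as one to CREB or to phospho-CREB1, and the treatment text has C26 mice injected with rolipram, an inhibitor of cAMP breakdown, or vehicle without saying which these mice got. Nor is it said whether libraries of a group came from separate animals, so the spread between them may be technical. Whole muscle was used, and a change in cell makeup and a change in binding per cell cannot be told apart.

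The peak lists held 10835 (CTRL replicate 1), 14975 (CTRL replicate 2), 7482 (C26 replicate 1) and 4051 peaks (C26 replicate 2), and values below follow this order. Read depth is unknown, so the lack of a peak means that no signal there reached the authors' threshold, not that CREB1 was absent. Of 8 skeletal muscle marker genes, 7, 8, 5 and 1 had a gene-end peak. None of 6 leukocyte, 3 adipocyte or 4 epithelial markers had one in any library. Of 4 endothelial markers only Kdr had one, and of 4 fibroblast markers only Col1a1, each in CTRL replicate 2 alone. Fold enrichment over input and −log10 q are the authors' values for each peak on a scale of its own list. Strength is therefore given as the percentile of −log10 q within the list, where 100 is the strongest, and folds are set side by side only to show the data.

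Promoter stretches of the members on which the results turn are shown first. They come from the RefSeq promoter table (GRCm38.p6, from 250 bases before to 50 after each start), are written 5′ to 3′ along the gene, and have position 1 at the first transcribed base. Capitals mark the full CRE (TGACGTCA), its core (TGACG, or CGTCA when read on the other strand) and the NRF1-type motif (GCGC, any base, then TGCGC, on either strand). Mrpl2 (chr17:46646082-46646245, plus strand), Mrpl49 (chr19:6057756-6057955, minus strand), Mrps17 (chr5:129715397-129715505, plus strand) and Mrpl55 (chr11:59202386-59202494, plus strand) are shown because they had the highest values of the lowest percentile over the 4 lists.
Mrpl2: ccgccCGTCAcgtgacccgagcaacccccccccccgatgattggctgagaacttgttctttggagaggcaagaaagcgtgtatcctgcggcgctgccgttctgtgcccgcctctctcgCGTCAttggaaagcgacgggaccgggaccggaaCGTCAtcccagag
Mrpl49: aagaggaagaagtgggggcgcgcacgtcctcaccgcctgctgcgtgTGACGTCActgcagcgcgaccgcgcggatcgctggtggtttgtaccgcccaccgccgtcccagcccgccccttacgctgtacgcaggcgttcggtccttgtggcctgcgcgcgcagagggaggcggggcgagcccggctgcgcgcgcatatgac
Mrps17: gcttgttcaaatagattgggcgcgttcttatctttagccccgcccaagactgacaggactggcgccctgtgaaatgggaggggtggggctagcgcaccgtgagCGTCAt
Mrpl55: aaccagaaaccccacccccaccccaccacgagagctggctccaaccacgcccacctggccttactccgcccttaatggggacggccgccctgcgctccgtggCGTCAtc
Mrpl16 (chr19:11770315-11770414, plus strand) is shown because it is the other member with a full CRE, and Mrpl30 (chr1:37890382-37890490, plus strand) because a CRE core and an NRF1-type match lie side by side in it.
Mrpl16: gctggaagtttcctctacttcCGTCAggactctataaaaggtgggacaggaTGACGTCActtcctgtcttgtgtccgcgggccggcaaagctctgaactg
Mrpl30: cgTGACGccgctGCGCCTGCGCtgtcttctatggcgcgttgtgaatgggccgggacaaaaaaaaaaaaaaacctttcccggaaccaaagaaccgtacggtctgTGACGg
Mrpl12 (chr11:120484527-120484636, plus strand) had strong peaks and an NRF1-type match but no CRE core, Mrps26 (chr2:130563697-130563771, plus strand) had peaks in CTRL muscle only, and Mrps25 (chr6:92184173-92184273, minus strand) has CRE cores but had no peak in any list.
Mrpl12: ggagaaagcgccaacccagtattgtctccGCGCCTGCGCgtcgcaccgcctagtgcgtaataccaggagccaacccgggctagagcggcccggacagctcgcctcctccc
Mrps26: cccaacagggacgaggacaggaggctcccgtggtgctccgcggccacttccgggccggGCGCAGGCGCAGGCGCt
Mrps25: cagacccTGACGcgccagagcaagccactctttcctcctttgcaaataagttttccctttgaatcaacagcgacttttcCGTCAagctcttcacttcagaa

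Most mitochondrial ribosomal protein genes had a phospho-CREB1 peak at an end of the gene in CTRL muscle, and fewer had one in C26 muscle. The count was 53 of 75 members in CTRL replicate 1 (70.7%, against 33.9% of all protein-coding genes), 61 in CTRL replicate 2 (81.3%, against 40.1%), 43 in C26 replicate 1 (57.3%, against 26.1%) and 22 in C26 replicate 2 (29.3%, against 14%). Both CTRL libraries lay above both C26 libraries, and the C26 libraries lay further from each other than the CTRL libraries did. The mean was 57 ± 5.66 members in CTRL and 32.5 ± 14.8 in C26 (SD, n = 2 each), a difference of -24.5 members. A two-sided exact permutation test over the 4 libraries gave p = 0.333, the smallest p that 2 against 2 libraries allow. The number of peaks in the whole list moved the same way: with each list cut to its 4051 strongest peaks, 28, 30, 27 and 22 members had a gene-end peak and the difference was -4.5. Without C26 replicate 2 alone, the difference over the full lists was -14.

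**Figure D1:**
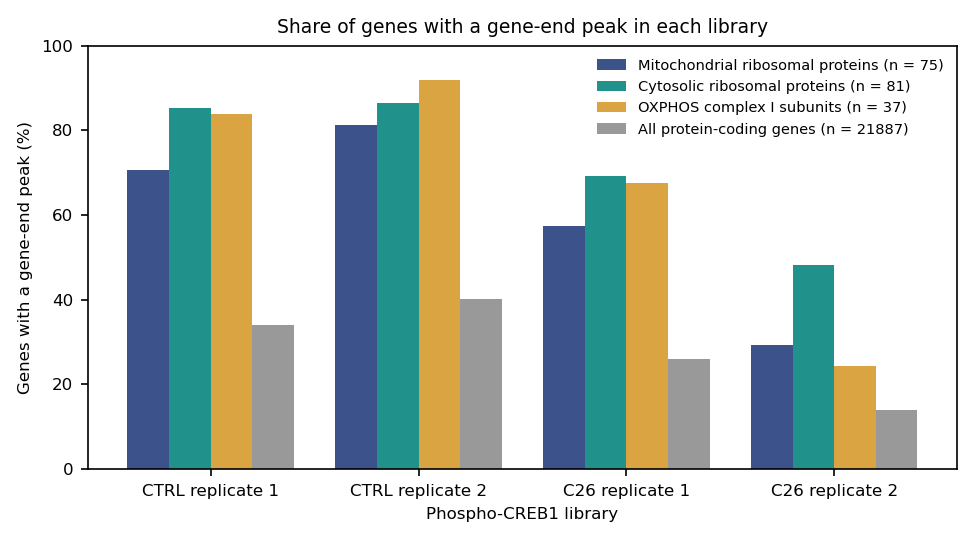
Bars give the percentage of genes with a gene-end peak (vertical axis) in each of the 4 phospho-CREB1 libraries (horizontal axis) for the 75 mitochondrial ribosomal protein genes, 81 cytosolic ribosomal protein genes, 37 complex I subunit genes and all 21887 protein-coding genes; each bar is 1 library, so there is no error bar. The mitochondrial ribosomal bars fall from 81.3% in CTRL replicate 2 to 29.3% in C26 replicate 2 and stay above the bar for all genes in each library.

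In all, 64 members (85.3%, against 42.3% of all genes) had a gene-end peak in at least 1 library, 50 in both CTRL libraries (66.7%, against 32.2%) and 19 in all 4 (25.3%, against 12.7%). The 19 were also all the members with a peak in both C26 libraries (25.3%, against 13%). In each of the 19, the 4 peaks overlapped as 1 region. A peak in both CTRL and neither C26 library was found at 10 members (13.3%, against 7.40% of all genes), and in both C26 and neither CTRL library at 0 members (against 0.0274%). Of the 50 members with a peak in both CTRL libraries, 40 also had one in a C26 library (80.0%, 95% Wilson interval 67.0% to 88.8%, counting error only), against 77.0% of the 7037 genes of that kind overall. Likewise 19 of the 50 (38.0%) had a peak in all 4 libraries, against 39.6%, and 10 (20.0%) in neither C26 library, against 23%. These shares lie near those of all genes with peaks in both controls. Single libraries set several of these counts: without C26 replicate 2, 38 members had a peak in every remaining library. Leaving out C26 replicate 1 put 29 members in that CTRL pattern and the share with a C26 peak at 42.0%, and leaving out CTRL replicate 1 put 16 members there.

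Among members with a peak, the median strength percentile was 64.2, 72.3, 64.0 and 77.1, beside 63.6, 69.2, 60.5 and 60.9 for all genes with a gene-end peak. Peaks above the 90th percentile of their list were found at 11 of 53, 14 of 61, 8 of 43 and 3 of 22 members (20.8%, 23%, 18.6% and 13.6%), beside 15.5%, 17.9%, 14.3% and 14.5% of all genes with one. Fold enrichment at the members ran from 3.29 to 107, from 4.27 to 182, from 3.27 to 86.8 and from 4.95 to 48.2. Across the 50 members with a peak in both CTRL libraries, Pearson's r of the percentile was 0.752. This is a description across genes, which are not independent replicates and share the library, the peak caller and in places the peak.

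**Figure D2:**
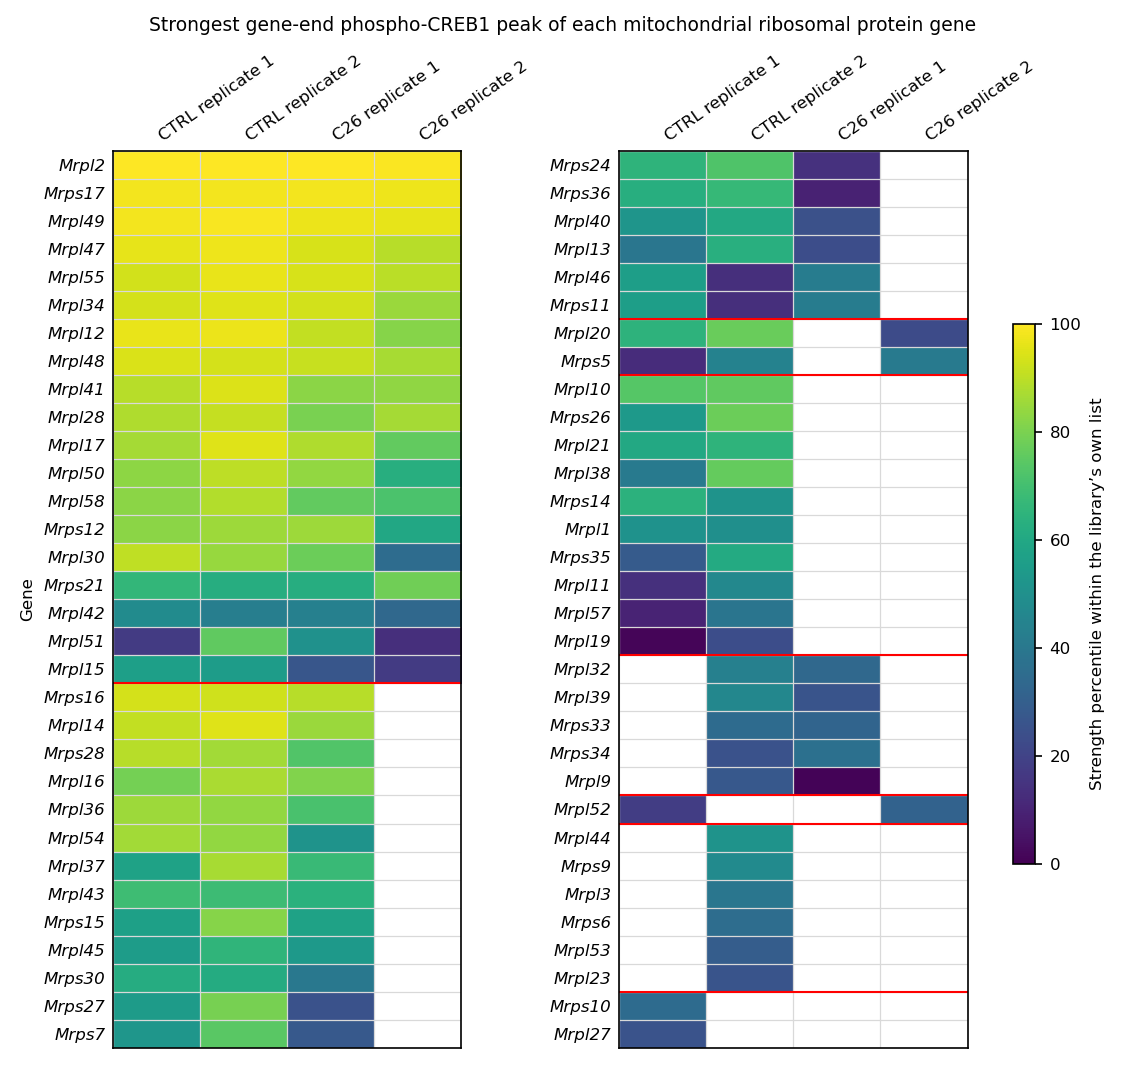
Each row is 1 of the 64 mitochondrial ribosomal protein genes with a gene-end peak, each column 1 library, and the colour gives the strength percentile of the strongest peak within that library's own list, with white for no peak; red lines separate the patterns of libraries with a peak. The 19 genes with a peak in all 4 libraries stand at the top left, and the 10 with a peak in both CTRL libraries only have white cells in both C26 columns.

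Mrpl2, whose bacterial relative lies beside the site where peptide bonds form, had the strongest member peak in every list. Its fold enrichment was 107 and 182 in the CTRL libraries and 86.8 and 48.2 in the C26 libraries. That peak ranked 15 of 10835, 10 of 14975, 13 of 7482 and 22 of 4051, so it stood near the top in both groups. In CTRL replicate 2 it spanned chr17:46645604-46646675, and its 4 summits lay at -1, -3, 4 and -13 bp from the nearest RefSeq start. The stretch printed above holds 3 CRE cores, of which the nearest to the start was 15, 17, 6 and 27 bp from the summits.

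Mrps17, a small-subunit protein whose bacterial relative binds ribosomal RNA early in assembly, was the strongest small-subunit member. Fold enrichment there was 67.0 and 74.7 in CTRL and 56.5 and 30.7 in C26 libraries (percentiles 98.3, 98.3, 98.2 and 97.5), with the CTRL replicate 2 peak at chr5:129715191-129715885. Mrpl49, a large-subunit protein without a bacterial relative, had 62.5-fold and 87.3-fold enrichment in CTRL and 23.3-fold and 26.1-fold in C26 libraries, with the CTRL replicate 2 peak at chr19:6057503-6058313. Its summits lay at -144, -141, -146 and -152 bp from the start, and the middle of the full CRE printed above lay 6.5, 9.5, 4.5 and 1.5 bp from them. Both genes stayed above the 96th percentile of each list.

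Mrpl55, a relative of bacterial L31, had 28.4-fold and 43.3-fold enrichment in CTRL and 26.7-fold and 15.8-fold in C26 libraries (chr11:59202130-59203052 in CTRL replicate 2). Mrpl47, a relative of bacterial L29, which lies at the exit of the peptide tunnel, had 28.5-fold and 57.3-fold in CTRL and 18.2-fold and 14.4-fold in C26 libraries (chr3:32736212-32737372). Mrpl34, a relative of bacterial L34, had 18.8-fold and 27.6-fold in CTRL and 17.4-fold and 12.2-fold in C26 libraries (chr8:71464487-71465276). In these 3 genes the lowest percentile was in C26 replicate 2 (89.7, 89.2 and 85.0), the shortest list. By rank from the strongest peak, that list held the lowest placing of none of them. Mrpl55 ranked 721, 486, 444 and 419, Mrpl47 386, 368, 440 and 439, and Mrpl34 693, 708, 524 and 609. Mrpl12, the relative of the bacterial L7/L12 stalk protein that recruits translation factors, had 39.9-fold and 43.1-fold in CTRL and 10.9-fold and 11.6-fold in C26 libraries (chr11:120483873-120484919). The middle of its NRF1-type match lay 15.5, 0.5, 7.5 and 56.5 bp from the summits, and its lowest percentile was 81.8, in C26 replicate 2. The other members of the 10 with the highest lowest percentile were Mrpl48 (27.7, 25, 14.7 and 13.9-fold), Mrpl41 (17.6, 24.3, 8.03 and 11.8-fold) and Mrpl28 (16.6, 19.1, 9.50 and 13.8-fold), all of the large subunit. Thus 9 of these 10 genes encode large-subunit proteins and 1 a small-subunit protein, in a family of 50 and 24. They could come only from the 19 members with a peak in all 4 libraries, of which 16 are of the large and 3 of the small subunit.

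The remaining 9 genes with a peak in all 4 libraries were Mrpl15, Mrpl17, Mrpl30, Mrpl42, Mrpl50, Mrpl51, Mrpl58, Mrps12 and Mrps21. Mrps12, a relative of bacterial S12 at the decoding centre, had 11.9-fold and 14.6-fold enrichment in CTRL and 10.3-fold and 7.78-fold in C26 libraries. Mrps21 had 7.54-fold and 7.87-fold in CTRL and 7.73-fold and 10.7-fold in C26 libraries, and its percentile was highest in C26 replicate 2 (66.1, 62.3, 62.4 and 78.3). Mrpl51 had 4.08, 12.4, 5.50 and 4.99-fold enrichment. It was the weakest member in the C26 replicate 2 list, at a percentile of 13.4.

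The pattern of libraries followed the strength of the CTRL peak. Members with a peak in both C26 libraries (19) had a median percentile of 89.1 and 93.4 in CTRL replicates 1 and 2, those with a peak in 1 C26 library (21) had 61.9 and 74.3, and those with none (10) had 45.9 and 56.3. When the 50 members were split by the lower of their CTRL percentiles, 21 of 21 above 75 had a peak in a C26 library (99.4% of all genes in that range), and 15 of these in both (78.1% of all genes). Between 50 and 75 it was 13 of 17 members (76.5%, against 83.2%), between 25 and 50 it was 2 of 5 (40.0%, against 57.7%), and below 25 it was 4 of 7 (57.1%, against 36.6%). The ranges overlapped: Mrpl51 kept a peak in both C26 libraries from a CTRL replicate 1 percentile of 17.3, whereas Mrpl10 had none from a percentile of 73.4.

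**Figure D3:**
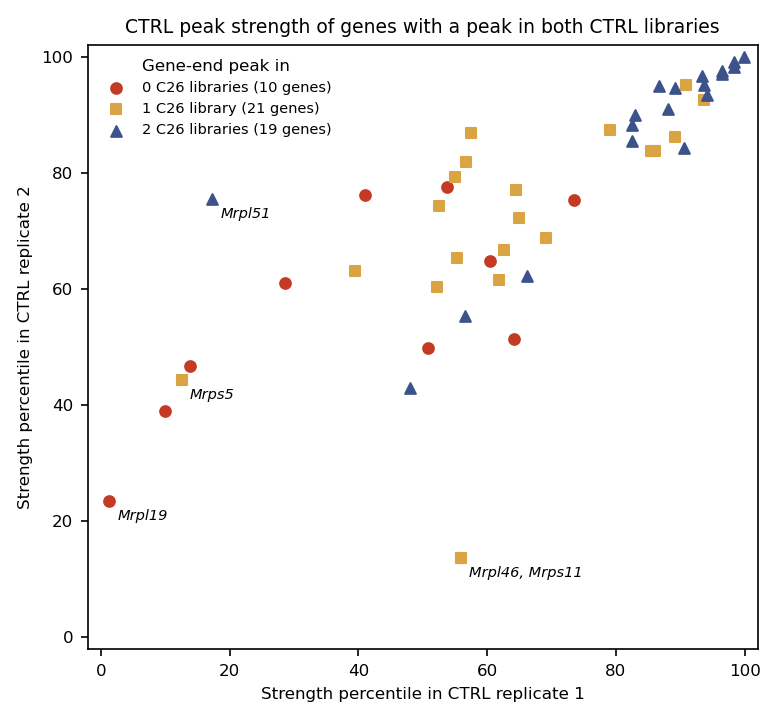
Each point is 1 of the 50 mitochondrial ribosomal protein genes with CTRL peaks in both lists, placed by its strength percentile in CTRL replicate 1 (horizontal axis) and CTRL replicate 2 (vertical axis), with shape and colour for the number of C26 libraries with a peak. Triangles (2 C26 libraries, 19 genes) gather at the top right, and circles (no C26 library, 10 genes) stay at or below the percentile of 73.4 in CTRL replicate 1.

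The 10 members with a peak in both CTRL and neither C26 library were Mrpl10, Mrpl21, Mrps26, Mrps14, Mrpl1, Mrpl38, Mrps35, Mrpl11, Mrpl57 and Mrpl19. Mrpl10, the relative of the bacterial protein that anchors the L7/L12 stalk, was the strongest by the lower of its CTRL percentiles, with 9.62-fold and 11.1-fold enrichment (percentiles 73.4 and 75.4). Mrpl21 had 7.47-fold and 8.53-fold enrichment, Mrps14 had 8.67-fold and 7.34-fold, and Mrpl1 had 6.77-fold and 6.37-fold. Mrpl38 had 5.68-fold and 12.9-fold (percentiles 41.0 and 76.3), Mrps35 had 5.46-fold and 9.12-fold (28.5 and 61.1), and Mrps26 had 5.47-fold and 11.3-fold (53.8 and 77.6). By percentile, all of the 10 but Mrps14 and Mrpl1 were stronger in CTRL replicate 2 than in CTRL replicate 1. Mrpl11, a relative of the bacterial stalk-base protein, had 3.66-fold and 6.85-fold, and Mrpl57 had 4.02-fold and 6.31-fold. Mrpl19 had 3.29-fold and 4.88-fold, and its percentile of 1.27 was the lowest of any member in CTRL replicate 1. None of the 10 reached the 80th percentile in either CTRL list, and with lists of 4051 peaks each, 1 member was left with this pattern.

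At 19 members the peak was missing from C26 replicate 2 alone, the shortest list, a pattern held by 35.3% of all genes with peaks in both controls. By the lower of its CTRL percentiles the strongest was Mrps16, with 23-fold and 24.7-fold enrichment in CTRL and 10.3-fold in C26 replicate 1 (percentiles 93.6, 92.6 and 89.2). Next came Mrpl14 (18.2, 33.1 and 8.67-fold), which was stronger than Mrps16 in CTRL replicate 2, and Mrps28 (17.6, 16.3 and 6.95-fold). Mrpl16, whose promoter holds a full CRE, had 9.51, 16.4 and 11.3-fold enrichment, and the middle of that element lay 3.5, 14.5 and 51.5 bp from the summits. The reverse, a peak missing from C26 replicate 1 alone, was found at 2 members (2.1% of such genes): Mrps5 (4.01, 6.09 and 6.32-fold) and Mrpl20 (8.46, 9.71 and 5.44-fold).

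A C26 peak without peaks in both controls was seen at 6 members (8%, against 2.38% of all genes). Mrpl32 (4.70-fold in C26 replicate 1), Mrpl39 (4.81-fold), Mrps33 (4.45-fold), Mrps34 (5.76-fold) and Mrpl9 (3.31-fold) shared it with CTRL replicate 2, where they had 5.21-fold to 7.14-fold enrichment. Mrpl52 had 4.28-fold in CTRL replicate 1 and 5.95-fold in C26 replicate 2. All were weak, with Mrpl9 at a percentile of 1.17, the lowest of any member in C26 replicate 1. A single CTRL peak and no other was found at 8 members (10.7%, against 7.80% of all genes): Mrpl3, Mrpl23, Mrpl44, Mrpl53, Mrps6 and Mrps9 in CTRL replicate 2, and Mrpl27 and Mrps10 in CTRL replicate 1.

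No gene-end peak in any list was found at 11 members (14.7%, against 57.7% of all genes): Mrpl4, Mrpl18, Mrpl22, Mrpl24, Mrpl33, Mrpl35, Mrps2, Mrps22, Mrps23, Mrps25 and Mrps31. The gene span is not always the transcription start, however. The RefSeq promoter table gives a start for 66 of the 75 members, and for 6 of these (Mrpl18, Mrpl22, Mrpl24, Mrpl36, Mrps2 and Mrps23) every start lay more than 1000 bp from both span ends. Of the 10 members with no gene-end peak and a start in the table, 5 had a peak within 1000 bp of that start. Mrps23, with a start 7119 bp inside its span, had one in all 4 libraries at 10.7, 28.3, 14 and 8.07-fold, and Mrpl18 had one in all 4 at 11.1, 10.3, 3.80 and 4.12-fold. Mrpl22 had 7.49-fold in CTRL replicate 1 and 4.90-fold in C26 replicate 1, Mrpl24 had 6.97-fold and 5.28-fold in CTRL, and Mrps2 had 3.66-fold and 5.38-fold in CTRL. Mrpl33, Mrpl35, Mrps22, Mrps25 and Mrps31 had none at their starts either.

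Counted at RefSeq starts alone, a choice made after the data were seen, 50, 57, 40 and 22 of 66 members had a peak, against 36.5%, 43.0%, 28% and 15.0% of 17492 genes with a start in the table. Of these members, 46 had a peak in both CTRL libraries (against 34.8% of genes), 19 in all 4 (against 13.7%) and 9 in both CTRL and neither C26 library (against 7.98%). The counts were thus equal to or slightly below those at span ends. They were out of 66 members rather than 75, so the shares were somewhat higher, and the genes behind them differed at some members. Mrpl4, Mrpl13, Mrpl15, Mrpl19, Mrpl38, Mrpl54, Mrps28, Mrps34 and Mrps35 were not in the table.

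At most members with a start in the table, the counted peak lay near that start. Only summits within 1000 bp of a span end were counted, and 1 end is often the start, so nearness was partly built in. No share for all genes with a gene-end peak stands beside the counts that follow. Of peaks at members with a start in the table, 41 of 46, 47 of 53, 35 of 38 and 17 of 21 had the summit within 250 bp of a start, and 30, 30, 26 and 10 within 100 bp. The median summit lay at -32.5, -35, -29.5 and -20.0 bp, just upstream of the start. The exceptions beyond 1000 bp were Mrpl36 and Mrpl58. The counted peak of Mrpl36 lay at the start of its neighbour Ndufs6, while at the start of Mrpl36 itself a second peak of 6.54, 12.3 and 6.32-fold in all libraries but C26 replicate 2 fell just outside the window. For Mrpl58, which encodes a peptidyl-tRNA hydrolase built into the large subunit, the peaks counted in all 4 libraries (9.31, 17.3, 6.54 and 9.17-fold) lay past the far end of the gene. Their summits were 52, 34, 42 and 104 bp from a tRNA gene, n-TRcct3 (chr11:115413304-115413376), and at its own start Mrpl58 had a peak in CTRL replicate 2 only (7.34-fold). At the edge of the window, the farthest summit counted was at 840 bp from a span end (Mrpl45 in CTRL replicate 1, 6.87-fold), and the nearest one not counted was at 1085 bp (Mrpl38 in CTRL replicate 2, 10.9-fold).

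**Figure D4:**
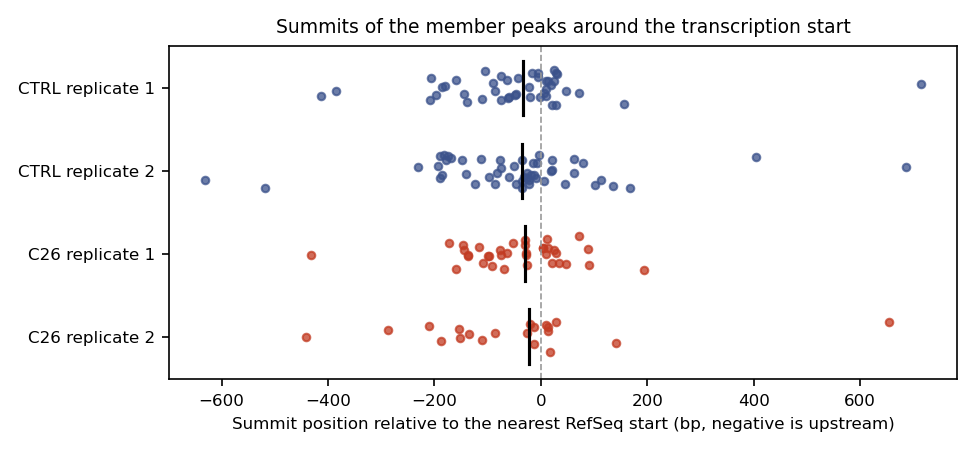
Each point is the summit of the strongest gene-end peak of 1 mitochondrial ribosomal protein gene in 1 library, placed by its distance in bp from the nearest RefSeq start (horizontal axis, negative upstream), with a black bar for the median of the library; the peaks of Mrpl36 and Mrpl58, which lie beyond 1000 bp, are not drawn. The points crowd within 250 bp of the start in each library, and the medians lie between -35 and -20.0 bp.

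Many of these peaks could belong to another gene as well. A gene-end peak of the member also lay at an end of another protein-coding gene for 30 of 53, 33 of 61, 26 of 43 and 13 of 22 members (56.6%, 54.1%, 60.5% and 59.1%), against 31.3%, 30.4%, 33.2% and 36.7% of all genes with a gene-end peak. The lists cannot tell which gene such a peak serves. Over all libraries 35 members shared a peak, in 35 distinct pairs with a neighbour, and 28 pairs had starts in the table for both genes. Of these, 22 were divergent, reading away from each other, with starts 32 to 2527 bp apart (median 136 bp), and 18 had starts within 350 bp. A shared peak needs a summit within 1000 bp of an end of both genes, so close neighbours were favoured by the rule. No share among all genes with a shared peak stands beside these pair counts.

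Of the 10 strongest members, 8 shared their peak. Mrpl2 was paired with Klc4, a kinesin light chain gene whose start lay 141 bp away on the other strand, and a second, separate peak at the far end of Mrpl2 in CTRL replicate 1 also lay at an end of Cul7. Mrpl49 was paired with Fau (192 bp), which encodes a cytosolic ribosomal protein as a fusion, and Mrpl47 with Ndufb5 (308 bp), a complex I subunit gene. Mrpl34 was paired with Abhd8, Mrpl41 with Pnpla7 and Mrpl48 with Rab6a on opposite strands, and Mrpl12 with Hgs and Mrpl28 with Pgap6 on the same strand. Mrps17 and Mrpl55 had a peak of their own. Mrpl46 and Mrps11, with starts 42 bp apart, are both members and shared 1 peak (7.74, 4.27 and 5.98-fold, absent from C26 replicate 2), so they are not separate observations. Other pairs joined members to mitochondrial genes, such as Mrpl43 with Twnk (116 bp), the mitochondrial DNA helicase, Mrps12 with Sars2 (147 bp), the mitochondrial seryl-tRNA synthetase, and Mrps27 with Ptcd2 (108 bp). Leaving out all 35 members with a shared peak left 40, of which 21 had a peak in both CTRL libraries, 7 in all 4 and 6 in both CTRL and neither C26 library. Only members with a peak can be left out in this way, and the 11 without one stay, so lower counts were bound to follow. No share of all genes treated in the same way stands beside these counts.

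The full CRE was rare and its core common in these promoters. Motifs were searched on both strands over the whole window of the table, and every full CRE also counts as a core. TGACGTCA was found in 2 of 66 member promoters (3.03%, Wilson 0.835% to 10.4%), Mrpl49 and Mrpl16, against 2.54% of 17492 genes. TGACG was found in 28 (42.4%, 31.2% to 54.4%), against 26.2%. The NRF1-type motif was found in 13 (19.7%, against 7.17%), the ETS-type motif CCGGAAG in 23 (34.8%, against 12.9%) and the YY1-type motif AAGATGGCG in 7 (10.6%, against 2.14%). Among genes with a peak in both CTRL and at least 1 C26 library, the first 2 shares lay nearer to those of all genes. There the NRF1-type motif was in 6 of 36 members (16.7%, against 13.6%) and the ETS-type motif in 10 (27.8%, against 24.7%). The YY1-type motif was in 6 of these 36 (16.7%, against 4.70%). A match is a string of letters, not evidence of a bound factor.

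Over the whole promoter window, a CRE core was most frequent among members with a peak in all 4 libraries. A core was present in 12 of 18 members with a peak in all 4 libraries (66.7%, against 60.3% of all genes with that pattern), 9 of 18 with a peak in both CTRL and 1 C26 library (50%, against 39.3%) and 3 of 7 with peaks in both CTRL libraries only (42.9%, against 27.1%). It was present in 1 of 13 with a peak in 1 CTRL library (7.69%, against 22.4%) and 3 of 10 with no peak (30%, against 16.0%). With so few members the Wilson intervals of neighbouring patterns overlapped. In the 150 bases before the start alone, the order of the first 2 patterns turned, with a core in 6 of 18 members with a peak in all 4 libraries (33.3%) and 7 of 18 with a peak in both CTRL and 1 C26 library (38.9%). Over the whole window the share in all genes fell at each step, whereas in the members the last 2 patterns stood the other way round. The 3 members with a core and no gene-end peak were Mrps23, which had peaks at its RefSeq start, and Mrps25 and Mrps31, which had none there.

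**Figure D5:**
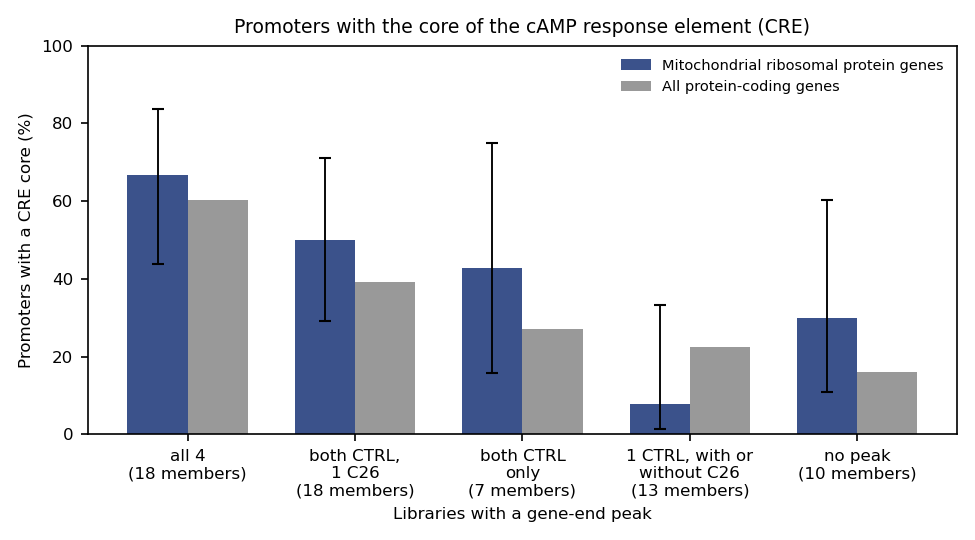
Blue bars give the percentage of mitochondrial ribosomal protein genes whose promoter holds the CRE core (vertical axis) for each pattern of libraries with a gene-end peak (horizontal axis), with 95% Wilson intervals as error bars, and grey bars give the same for all protein-coding genes. The share is 66.7% of 18 members with a peak in all 4 libraries and 7.69% of 13 members with a peak in 1 CTRL library, and the intervals are wide.

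Peaks of members with a core in the promoter also had a higher median strength in each list, a difference that was not tested. The median percentile with and without a core was 82.5 (25 members) and 55.9 (21) in CTRL replicate 1, and 86.2 (24) and 51.5 (29) in CTRL replicate 2. In the C26 libraries it was 82.7 (19) and 43.7 (19) in replicate 1, and 84.2 (14) and 71.5 (7) in replicate 2. For all genes with a peak the medians were 77.7 and 53.3, 82.1 and 61.0, 74.8 and 48.4, and 70.4 and 46.5, so the members went the same way as other genes. The core nearest to the summit lay a median of 20.0, 24, 19.0 and 36 bp from it, and within 50 bp at 16 of 25, 17 of 24, 13 of 19 and 9 of 14 members. Cores were sought only in the promoter window, where most summits also lay, so long distances were not possible at most members. No distance for all genes stands beside these values.

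Large-subunit genes carried peaks at a higher share than small-subunit genes in each library. Of 50 large-subunit genes 37, 42, 30 and 18 carried a peak (74%, 84%, 60% and 36%). In both CTRL libraries it was 35 (70%), in all 4 it was 16 (32%), and in both CTRL and neither C26 library it was 7 (14%). Of 24 small-subunit genes the counts were 15, 18, 12 and 4 (62.5%, 75%, 50% and 16.7%). There, 14 had a peak in both CTRL libraries (58.3%), 3 in all 4 (12.5%, Mrps12, Mrps17 and Mrps21) and 3 in both CTRL and neither C26 library (12.5%). For all genes the shares were 33.9%, 40.1%, 26.1% and 14% by library, and 32.2%, 12.7% and 7.40% for these patterns. The small-subunit share thus lay near that of all genes for all 4 libraries and for C26 replicate 2. The difference between the subunits was not tested. Proteins with a bacterial relative (45 genes) and those found only in mitochondrial ribosomes (29 genes) were nearly level in these counts, with 30 (66.7%) and 19 (65.5%) in both CTRL libraries and 12 (26.7%) and 7 (24.1%) in all 4. In C26 replicate 1 the share was 53.3% and 62.1%. Median strength among those with a peak was higher for proteins with a bacterial relative, at percentiles of 69.8, 74.9, 78.7 and 80.1 against 55.6, 67.1, 51.1 and 67.2, a difference that was not tested. Mrps36 had a peak in all libraries but C26 replicate 2.

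Genes that act with the mitochondrial ribosome carried peaks too. For all genes the shares were 33.9%, 40.1%, 26.1% and 14% by library. They were 12.7% in all 4 libraries and 7.40% in both CTRL and neither C26 library. Of 8 ribosomal proteins with other symbols, 5, 6, 5 and 2 had a gene-end peak (62.5%, 75%, 62.5% and 25%). Mrps18b (13.9, 14.9, 6.88 and 13.4-fold) and Aurkaip1 (6.54, 9.79, 4.87 and 5.77-fold) had one in all 4 (25%). Mrps18c and Ptcd3 had one in both CTRL and neither C26 library (25%). Dap3 (5.93-fold) and Gadd45gip1 (4.86-fold) had one in C26 replicate 1 only. Of 23 genes for assembly of the ribosome, such as rRNA methyltransferases, GTPases and helicases, 19, 23, 19 and 12 had a peak (82.6%, 100%, 82.6% and 52.2%). A peak in all 4 was found at 12 of them (52.2%), and Mterf4 alone had one in both CTRL and neither C26 library (4.35%). The strongest included Gtpbp10, a GTPase (73.1, 173, 32 and 26.9-fold), and Mrm3, an rRNA methyltransferase (73.0, 79.4, 35.1 and 34.6-fold). Of 15 translation factors and regulators, 9, 10, 9 and 4 had a peak (60%, 66.7%, 60% and 26.7%). Gfm2, Guf1, Mrrf and Lrpprc had one in all 4 (26.7%), and none had one in both CTRL and neither C26 library. Guf1, a translation GTPase, had 173, 224, 106 and 43.6-fold enrichment, and Mrrf, the ribosome recycling factor, 59.6, 108, 30.1 and 34.3-fold. No peak was listed at Gfm1, Mtif2, Mtif3 or Slirp.

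A lower share of the mitochondrial ribosomal genes than of either of 2 other families had a gene-end peak in 3 of the 4 libraries, with 70.7%, 81.3%, 57.3% and 29.3% in library order. Cytosolic ribosomal protein genes (81) had one at 85.2%, 86.4%, 69.1% and 48.1%, and complex I subunit genes (37) at 83.8%, 91.9%, 67.6% and 24.3%. In both CTRL libraries it was 50 of 75 genes of the mitochondrial ribosome (66.7%), 67 of the cytosolic ribosome (82.7%) and 30 of complex I (81.1%). Among genes with peaks in both controls, the share in all 4 was 38.0% for the mitochondrial ribosome, 55.2% for the cytosolic ribosome and 26.7% for complex I. In the same order, the share in neither C26 library was 20.0%, 14.9% and 23.3%. These differences between families were not tested.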

How the data were processed

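Phospho-CREB1 ChIP-seq peak lists of 4 muscle libraries (2 CTRL, 2 C26) were used. Per the submitters' processing notes the tools included MACS2 2.1.4, SAMtools 1.6, Bowtie2 2.3.5.1, FastQC 0.11.2 and Picard, on mm10 (GRCm38). Per the labels, peaks were called for each library against a numbered input of its group at a q threshold of 0.05, not on pooled replicates, and a further filter is named only by an abbreviation. Each deposited list gives a peak's position and summit offset (in bp), a display score, the fold enrichment at the summit (a ratio to input), and the −log10 p-value and −log10 q-value, as the authors' peak caller wrote them. Read counts were not analysed here, so depth is unknown, and a longer list finds weaker peaks.

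Gene-end peaks, percentiles of −log10 q within each list, shared peaks and motif matches were computed with Python 3.11.15, numpy 2.4.6, pandas 2.3.3 and scipy 1.17.1, and the scripts were tested on simulated data. Spans came from the RefSeq gene table and starts, strands and sequences from the RefSeq promoter table, both GRCm38.p6, which held 66 of 75 members. The members and all gene lists were chosen with earlier results of these data known. Named members were the 10 with the highest lowest percentile over the 4 lists, all CTRL-only members (a peak in both CTRL and neither C26 library), all with a C26 peak but not both CTRL peaks, all without a peak, the strongest and weakest of each list, and the strongest with shared peaks. Others, such as Mrps16, Mrpl16 and Mrps21, were named after their values were seen. Wilson intervals (95%) cover counting error only. The alternatives were windows of 500 and 2000 bp, −log10 q of at least 5, lists of equal length, any overlap of the window, other symbols added, shared peaks left out and each library left out. Counts at RefSeq starts were added after seeing the data.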

Additional observations from a re-analysis of the deposited data

How the results depend on the processing

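Under alternative settings 129 values were recomputed. Most were counts, shares or medians, which have no direction, and only the difference between the groups could have reversed. Of the 129 values, 14 moved past the limit set for their kind (a factor of 1.5 for a count). With every list cut to the 4051 strongest peaks, members with a gene-end peak numbered 28, 30 and 27 in CTRL replicates 1 and 2 and C26 replicate 1, 23 had one in both CTRL libraries, 1 had one in both CTRL and neither C26 library, and 95.7% of those in both CTRL libraries had one in a C26 library. Without members whose peak is shared, a step that can only lower such counts, 21 had a peak in both CTRL libraries, 7 in all 4 and 6 in both CTRL and neither C26 library. Leaving out 1 library at a time gave 12 to 29 members in CTRL and not C26 libraries, 19 to 38 in every remaining library, and a share with a C26 peak of 42.0% to 77.4%. The CRE core in place of the full CRE raised the share of member promoters from 3.03% to 42.4%. The difference in the number of members stayed below 0 in all 13 alternative settings, but its size moved with them, at -4.5 members with lists of equal length, -12 without shared peaks, -14 without C26 replicate 2 and -35 without C26 replicate 1, beside -24.5, with exact permutation p from 0.333 to 0.667, and no setting with these libraries could reach the threshold of 0.05. With the replicate number as a block the difference was -24.5 and the exact p was 0.5, the smallest that this pairing allows, and the labels do not say that a number marks a shared animal or day. Depth limits all of these counts, since presence of a peak depends on a threshold in lists of 4051 to 14975 peaks.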
